A study of Rattus norvegicus with 17 samples.

Results

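The genes described here encode the proteins of the cytosolic ribosome, measured in single sensory neurons of the rat dorsal root ganglion. Gene rows were chosen by name: symbols starting with Rpl or Rps and a digit, plus Rplp0, Rplp1 and Rplp2, without the Rps6k kinases. Of 32883 gene rows, 97 carried such a name, and the 81 with at least 1 unique molecular identifier (UMI) in 100 or more cells are called members. No level in any neuron type chose them. The 81 rows hold 75 different symbols, because 12 rows are numbered loci that share a symbol (Rpl21-1, Rpl21-2 and Rpl21-4, for example). One row, Rps19bp1, fits the name pattern but encodes a protein that binds Rps19 and is no part of the ribosome.

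Neurons came from the L4-L5 ganglia of adult naïve male SD (Sprague-Dawley) rats, and were picked singly with a mouth pipette. The samples form 1 group of 17 batches, of which 1 (batch 21) repeats the counts of batch 20 and was left out. The protocols describe picking soon after plating and after longer culture, and do not say which batch is which, nor whether batches came from separate animals. Differences between batches therefore mix animals, culture and libraries. With a batch term in the fit, p-values measure only how far differences between neuron types vary from batch to batch among these batches. A minimum of 2000 detected genes left 967 of the 1040 cells in the 16 batches used. They held 4307 to 1514406 UMIs (median 139374), and batch totals ran from 3812280 to 26065847 UMIs. Across these batches 0 cells had identical counts. Levels are in counts per 1000000 UMIs (CPM); a 3′ UMI marks 1 captured mRNA end, so no division by transcript length was made.

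A ribosome is built from a large and a small subunit, and most of its proteins are present once per ribosome. Their mRNAs are among the most abundant in a cell, and most begin with a stretch of pyrimidines right at the transcription start, the 5′ terminal oligopyrimidine tract (TOP), through which mTOR signalling controls their translation as a block. In sensory neurons, mTOR-dependent translation in the cell body and along the axon has been linked to axon growth and to pain sensitivity. Large-subunit names start with Rpl (Rplp for the acidic stalk) and small-subunit names with Rps.

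The first letters of these transcripts are shown because the TOP tract is what the members are known to share. Each window below holds 30 bases, 15 before and 15 from the annotated start, 5′ to 3′ on the gene's strand, from RefSeq on build GRCr8. The longest unbroken run of C and T is in capitals. The windows are of the member most abundant in these neurons (Rpl41), of members described below as departing from the rest (Rpl19, Rps15a, Rpl13a, Rpl36a, Rplp0, Rps4y2, Rps27l), and of 2 members whose level changed with depth in opposite directions (Rpl37a, Rps13).
Rpl41 (chr7:1563483-1563512, minus strand): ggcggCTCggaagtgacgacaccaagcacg
Rplp0 (chr12:46718376-46718405, minus strand): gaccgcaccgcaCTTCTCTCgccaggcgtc
Rpl19 (chr10:83519049-83519078, plus strand): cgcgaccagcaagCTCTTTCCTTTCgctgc
Rps15a (chr1:181860270-181860299, minus strand): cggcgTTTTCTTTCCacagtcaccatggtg
Rpl13a (chr1:104748899-104748928, minus strand): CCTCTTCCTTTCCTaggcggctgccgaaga
Rpl36a (chrX:102059434-102059463, plus strand): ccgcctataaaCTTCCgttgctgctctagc
Rpl37a (chr9:81748076-81748105, plus strand): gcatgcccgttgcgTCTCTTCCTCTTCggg
Rps13 (chr1:180009646-180009675, minus strand): gccgtttcctacctcgTTCTCTCTTTgctt
Rps4y2 (chr4:183000898-183000927, plus strand): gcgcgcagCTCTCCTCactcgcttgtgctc
Rps27l (chr8:76443643-76443672, plus strand): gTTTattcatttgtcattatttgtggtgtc

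Of the 74 ribosomal symbols, 57 were matched to a start window. Their longest C and T run had a median of 10 bases, against 4 over all 33469 windows of the table. A run of 8 or more stood in 38 of the 57 (66.7%) and in 11.4% of all windows. The letters CTTTCC, searched on both strands, were on the gene's strand of 13 member windows (22.8%, against 1.24% of all windows) and on the other strand of 1 (1.75%, against 1.30%). The 2 members with the shortest runs shown, Rpl41 and Rps27l, had runs of 3 bases. A match is a description of these letters only, and annotated starts can lie some bases from the start used in these neurons.

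Levels differed widely among members. Pooled over the 967 cells they ran from 0.760 CPM for Rpl36al, a paralog of Rpl36a, to 1112 CPM for Rpl41, a short basic large-subunit protein. The median member stood at 428 CPM, 54 members were at 300 CPM or more and 8 were under 20 CPM. Other abundant members were Rps16 (714 CPM), Rpl14 (702 CPM) and Rplp0 (698 CPM), which is the base of the acidic stalk. Large-subunit rows gave 58.6% of all member UMIs and small-subunit rows 40.8%. A UMI was found in at least 90% of cells for 65 members, and in all 967 cells for 15, Rpl3 and Rpl10 among them.

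Some genes of the ribosome had few or no counts under their name. Rps6, the small-subunit protein phosphorylated by S6 kinase, had none, and neither had Rpl10a nor Rpl23a: 0 of 967 cells, which allows a share of cells with a UMI of up to 0.310%. Rpl8 had a UMI in 30 cells and the stalk protein Rplp2 in 75. These proteins are core ribosomal components. The sources used here do not say how reads that match several copies of a gene were counted, so a low row is not read as low expression. Among paralogs with tissue-restricted expression elsewhere, Rpl3l (98 cells), Rpl10l (79 cells) and Rpl39l (23 cells) were under the limit of 100 cells, while Rpl3 stood at 558 CPM, Rpl10 at 641 CPM and Rpl39 at 17.6 CPM. Rpl7l1 was low as well (3.67 CPM, beside 458 CPM for Rpl7). Rpl22l1 (283 CPM) and Rps27l (310 CPM, beside 653 CPM for Rps27) were abundant, and Rplp1, another stalk protein, stood at 485 CPM.

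The member share of a cell's UMIs fell with the cell's depth. Its median was 3.72% over the 967 cells, from 1.41% to 10.1%. With cells sorted by depth into 5 bins of 193 or 194 cells, from shallowest to deepest, the median share was 4.76%, 4.32%, 3.98%, 3.48% and 2.72%, which is 1.75-fold from end to end. Member UMIs rose over the same bins from a median of 642 to 15084 per cell, 23.5-fold, while total UMIs rose 42.6-fold. Spearman's rho between share and UMIs was -0.67 over cells, given as a description since a cell's depth is the share's own denominator. Within batches rho averaged -0.65 ± 0.19 (SD, n = 16 batches), from -0.84 to -0.13 in batch 28-1, and it was below 0 in 16 of 16 batches. When each batch was split at its median depth, the deeper cells had the lower median share in 16 of 16 batches, with a mean log2 ratio of -0.49 ± 0.16 (SD, n = 16).

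**Figure D1:**
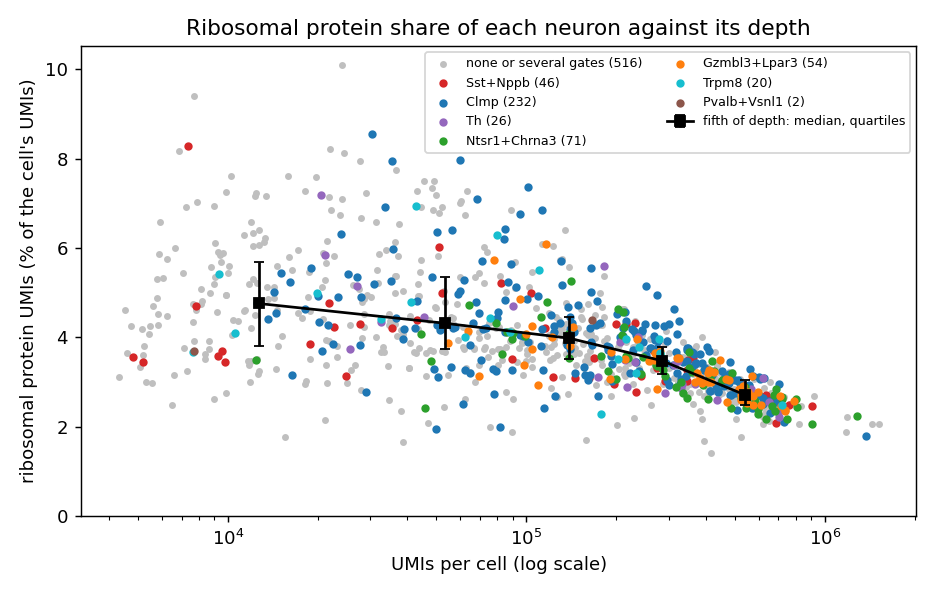
Ribosomal protein share of each cell (percent of its UMIs) against its UMIs on a log axis, coloured by gate, with squares for the median and bars for the quartiles of each of 5 depth bins. The median falls from 4.76% in the shallowest bin to 2.72% in the deepest, and the shallow cells are the more scattered.

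Members were not alone in this fall. Mitochondrially encoded transcripts went from 1.48% to 0.696% of UMIs (2.13-fold), and 685 other genes at 300 CPM or more went from 52.1% to 32.7% (1.59-fold, rho with UMIs -0.93). Among members the fall was steeper the higher the level: 54 of 54 members at 300 CPM or more had a lower mean CPM in the deepest than in the shallowest bin (median log2 ratio -0.78), while of the 685 other genes in that range 420 were lower and 265 higher (median -0.15). Across genes, which are not independent, rho between level and log2 ratio was -0.86 for the 81 members and -0.81 for the other 685 genes. Large- and small-subunit rows had like medians (-0.54 over 46 rows and -0.63 over 34).

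Rpl41 fell most, from 3273 CPM in the shallowest bin to 854 CPM in the deepest (log2 ratio -1.94). Its median count rose only from 43 to 472 UMIs per cell over that range. Rps16 (log2 ratio -1.48), Rpl37a (-1.37), Rps27 (-1.31) and Rplp0 (-1.31) followed. In the deeper cells of each batch these 5 were lower in 16 of 16 batches, as were 34 members in all. The part that UMI collapsing, RNA content and cell size have in this pattern was not tested.

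A smaller set of members went the other way. Of the 81, 22 had a higher mean CPM in the deepest bin, and 13 were higher in the deeper cells of at least 12 of 16 batches. Rps4y2, a copy of the small-subunit protein Rps4x, rose from 33.0 to 80.9 CPM (log2 ratio 1.27, higher in the deeper cells of 14 of 16 batches), Rps18l1 from 50.9 to 83.7 CPM (0.71) and Rps13 from 100.3 to 156 CPM (0.63). Rpl38, which is known for its role in translating Hox mRNAs, went from 55.3 to 81.9 CPM (0.56), and Rpl31 from 83.3 to 121 CPM (0.53). Rps13 and Rpl31 were higher in the deeper cells of 15 of 16 batches (mean log2 ratio 0.34 ± 0.22 and 0.44 ± 0.30, SD). None of the 22 reached 300 CPM.

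**Figure D2:**
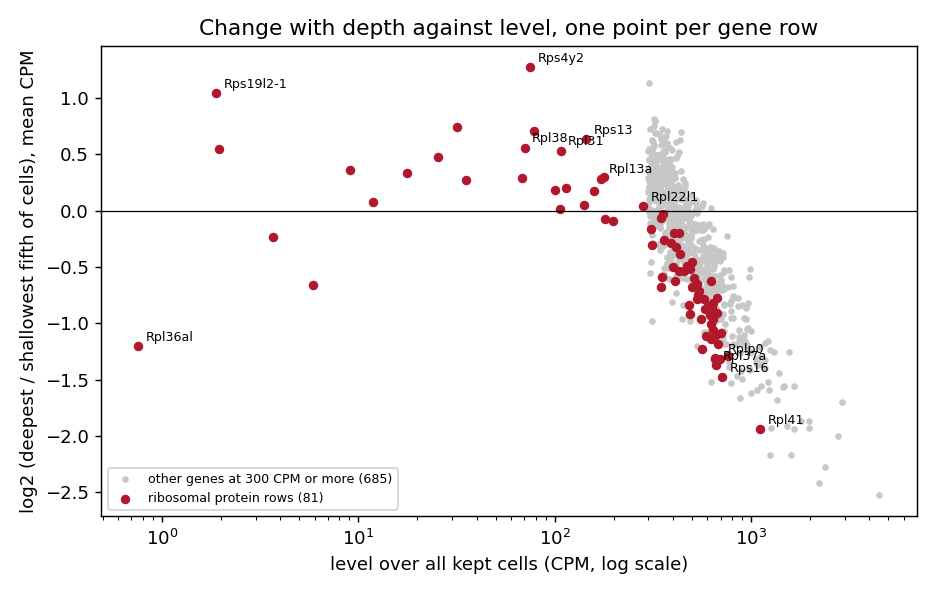
Log2 ratio of mean CPM between the deepest and the shallowest bin of cells against level over all kept cells (CPM, log axis), one point per gene row, for the 81 members (red) and 685 other genes at 300 CPM or more (grey). All 54 members at 300 CPM or more lie below 0, Rpl41 lowest at -1.94, and Rps4y2 highest at 1.27.

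Members rose and fell together across neurons to a degree that also followed their level. Over 47 sums of UMIs (1 per batch and neuron gate, below), the CPM of a member was correlated with the summed CPM of the other members at a median rho of 0.84. Among the members nearest the rest were Rps23 (0.97) and Rpl14 (0.96). At 0.8 or above stood 45 members, none of them under 354 CPM on average. Below 0.2 stood 21 members, none over 185 CPM. The lowest were Rpl9 (-0.42), Rpl36al (-0.18) and Rpl21-1 (-0.10), which averaged 25.9, 0.646 and 2.05 CPM. These correlations share depth and library, and are given as descriptions.

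Rps4y2 had an uneven level from cell to cell. In the 554 cells with at least 100000 UMIs its quartiles were 6.01 and 117 CPM around a median of 49.0 CPM, and 67 cells had no UMI. Rps4x-1, a row of like pooled level (68.0 against 75.1 CPM), had quartiles of 45.6 and 83.1 CPM and no UMI in 5 cells. The upper quartile of Rps4y2 was 19.5 times the lower one. The next highest ratios among members with a lower quartile above 0 were 4.01 (Rpl38), 3.78 (Rpl35a) and 2.78 (Rpl39). The choice of Rps4y2 for this comparison was made after its values were seen.

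Neurons were gated by genes that mark known sensory neuron types: Sst with Nppb (itch neurons), Trpm8 (cold), Clmp, Th (C-fibre low-threshold mechanoreceptors in mouse), Ntsr1 with Chrna3, Gzmbl3 with Lpar3, and Pvalb with Vsnl1 (proprioceptors and other large neurons). Every gate gene had to reach 2 UMIs and 20 CPM (200 CPM for Sst and Nppb), and a cell meeting several gates entered none. Of the 967 cells, 451 met 1 gate, 105 several and 411 none. UMIs were summed per batch where a gate had at least 3 cells, and gates with sums from at least 4 batches were tested: Clmp (all 232 cells in 15 sums), Ntsr1+Chrna3 (66 of 71 cells in 11 sums), Sst+Nppb (40 of 46 cells in 8 sums), Gzmbl3+Lpar3 (44 of 54 cells in 8 sums) and Th (19 of 26 cells in 5 sums). Trpm8 had 20 cells in this scheme and sums in 2 batches, and Pvalb+Vsnl1 had 2 cells and none.

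Gates are named by their genes, since independent markers bore out only some of them. Kit, a receptor of peptidergic neurons, averaged 187 CPM in the Clmp cells and 9.42 to 40.8 CPM in the other tested gates, and Calca (CGRP) was at 2049 CPM there and 2367 CPM in Sst+Nppb. Tac1, also checked for Clmp, was at 457 CPM there and 592 CPM in Sst+Nppb. Osmr, a receptor of itch neurons, was at 64.2 CPM in the Sst+Nppb cells, although Hpgds was at 0. The Ntsr1+Chrna3 cells had the most P2rx3 of the tested gates (494 CPM), but less Trpv1 (4.42 CPM) than Sst+Nppb, Clmp and Th (5.97 to 9.15 CPM). Mrgprd, the defining receptor of a non-peptidergic class, was at or near 0 in every gate (0.455 CPM in Gzmbl3+Lpar3), and the Th cells had 0 CPM of Slc17a8 and no more Tafa4 (5.55 CPM) than the Gzmbl3+Lpar3 cells (5.56 CPM). Uchl1, a marker of all neurons, was at 1678 to 2690 CPM in the tested gates. The 9 glial markers summed on average to 461 CPM in the Sst+Nppb cells and 74.2 to 169 CPM in the other tested gates, with Kcnj10 at 0 throughout. The median cell did not share this difference: 68.8 CPM in Sst+Nppb, against 68.3 to 160 CPM in the other tested gates. Over cells, rho between glial CPM and the ribosomal share was 0.05.

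Of the 5 tested gates, Clmp had the highest mean ribosomal share. The 20 Trpm8 cells, not tested here, had a higher median per cell (4.06%, against 3.78% in Clmp). The 15 Clmp sums ran from 3.06% to 4.17% with a median of 3.43%. The 11 Ntsr1+Chrna3 sums ran from 2.38% to 3.47% (median 2.96%). The 8 Sst+Nppb sums ran from 2.30% to 3.57% (median 3.10%), and the 8 Gzmbl3+Lpar3 sums from 2.90% to 3.83% (median 3.02%). The 5 Th sums were at 2.43%, 2.83%, 2.88%, 3.15% and 3.59%. All ranges overlapped. Within batches, Clmp was above the mean of the other gates in 12 of 13 batches, by 0.40 ± 0.36 percentage points (SD), and Ntsr1+Chrna3 in 2 of 11, Th in 1 of 5, Sst+Nppb in 4 of 8 and Gzmbl3+Lpar3 in 2 of 7. No p-value is given for this summed share.

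Depth moved with these gates. Median UMIs per cell were 164952 for Sst+Nppb, 188740 for Clmp, 233465 for Th, 316474 for Ntsr1+Chrna3 and 376760 for Gzmbl3+Lpar3, and the median share per cell ran from 3.78% in Clmp to 3.14% in Gzmbl3+Lpar3. Once the median of a cell's depth bin was taken off, Clmp averaged 0.24 ± 0.38 percentage points above it over 15 sums, and was above the other gates in 11 of 13 batches. The other means were 0.06 ± 0.28 (Gzmbl3+Lpar3), -0.13 ± 0.63 (Sst+Nppb), -0.17 ± 0.33 (Th) and -0.19 ± 0.36 (Ntsr1+Chrna3). Within gates, rho between share and UMIs was -0.63, -0.66, -0.87, -0.81 and -0.84 for Sst+Nppb, Clmp, Th, Ntsr1+Chrna3 and Gzmbl3+Lpar3.

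**Figure D3:**
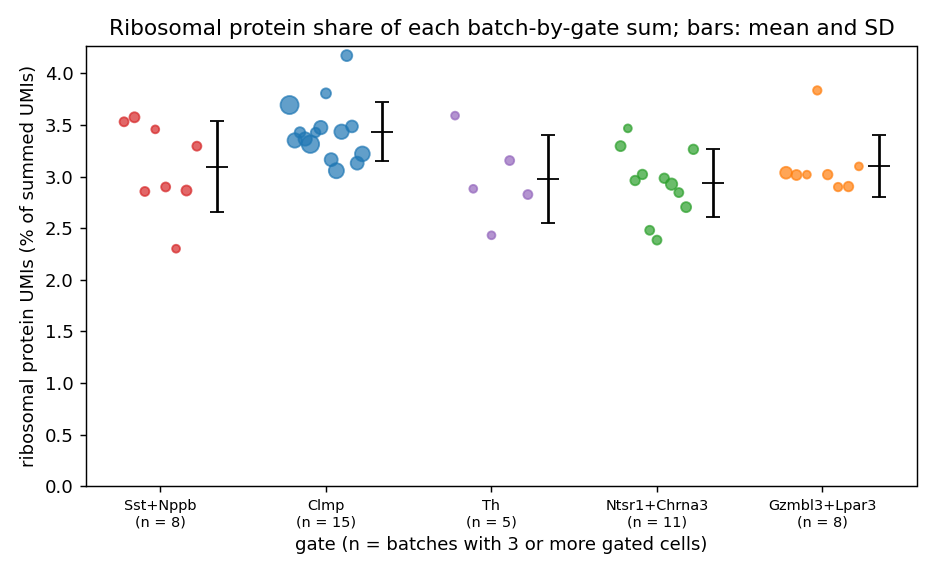
Ribosomal protein share (percent of summed UMIs) of each batch-by-gate sum, with larger points for sums of more cells and black bars for the mean and SD. The 15 Clmp sums average 3.43%, the highest of the 5 gates, and every gate's range overlaps the others.

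In the fit across all genes, the Clmp cells were the gate in which many members were higher. Each gate was set against the mean of the other 4 by edgeR's quasi-likelihood test with a batch term, and p-values were adjusted by Benjamini-Hochberg over 11493 genes, 78 members among them. Rpl36al, Rpl21-1 and Rps19l2-1 did not pass the filter on low counts. In Clmp, 38 of the 78 tested members rose and 1 fell (adjusted p under 0.05), against 18.8% of all tested genes called in either direction (10.4% higher, 8.37% lower). The members' median log2 fold change was 0.22 and that of all genes 0.02, and 72 of the 78 were above 0. By subunit, 23 of 44 large-subunit rows and 15 of 33 small-subunit rows rose. Only 1 or 2 members were called elsewhere: Rps4y2 in Sst+Nppb (background 11.7%), and Rpl13a and Rps20 in Gzmbl3+Lpar3 (background 13%). None was called in Ntsr1+Chrna3 (background 2.71%) or Th (background 1.69%), where 13 and 10 members had an unadjusted p under 0.05 and DESeq2 called 0 and 1. Member medians there were -0.13 and -0.16.

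The count in Clmp changed with the setting. With the mean log2 UMIs per cell of each sum as a covariate (chosen after seeing the data), 14 members were higher and 1 lower, against 14.7% of all genes, and the member median was 0.13. The same covariate gave 12 lower members and none higher in Sst+Nppb (background 6.93%, 3.78% lower, member median -0.25), and 7 higher and 1 lower in Gzmbl3+Lpar3 (background 13.1%). With all thresholds of the gates doubled, 10 rose and 1 fell in Clmp (background 15.3%, member median 0.18). Another setting chosen after seeing the data assigned cells that met several gates to the strongest one, lowered the minimum to 2 cells per sum and so brought in Trpm8. There, with 266 Clmp cells in place of 232, 3 rose and 1 fell in Clmp (background 12%). The member median was 0.06, beside 0.05 for all genes. With the depth covariate added to this scheme it was 0.008, beside 0.06 for all genes, and 43 of 77 members were above 0. The mean that Clmp was set against then also included Trpm8. Leaving out 1 batch at a time gave 28 to 48 called members. The share of all genes called in those refits is not given here, so this range is not read as a result about the members. Thinning cells to 30000 UMIs, which left out cells with fewer, gave 48 of 71 tested members, with a member median of 0.30. Of 5748 genes tested in the thinned cells, 712 were higher and 553 lower in Clmp. The 15 members called with the depth covariate were all among the 39.

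Among called members, those with the largest rise in Clmp were Rpl13a, Rpl36a and Rpl15. Rpl13a is a large-subunit protein also known for silencing inflammatory mRNAs once released from the ribosome. Its level in Clmp sums ran from 155 to 251 CPM (median 208), in Gzmbl3+Lpar3 from 82.1 to 169 CPM (median 123), in Ntsr1+Chrna3 from 114 to 226 CPM (median 163) and in Sst+Nppb from 107 to 199 CPM (median 172), and in the 5 Th sums it was 120, 150, 161, 193 and 194 CPM. The Clmp sums were the highest as a group and the Gzmbl3+Lpar3 sums the lowest, with overlap at the edges. Rpl13a rose in Clmp by a log2 fold change of 0.51 (SE 0.09, adjusted p = 3.05e-05 by edgeR), and was above the other gates in 13 of 13 batches. It fell in Gzmbl3+Lpar3 (log2 fold change -0.47, SE 0.12, adjusted p = 0.00813 by edgeR) and was lower in 7 of 7 batches. Both calls held under all 11 alternatives other than leaving out a batch (adjusted p from 4.17e-07 to 0.00154 and from 3.96e-05 to 0.0292). The second was lost without batch 20 (log2 fold change -0.41, adjusted p = 0.0529).

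Rpl36a, an X-linked large-subunit protein, ran from 340 to 538 CPM in Clmp sums (median 412) and from 178 to 402 CPM over the sums of the other 4 gates, with some overlap. It rose by 0.40 on the log2 scale (SE 0.07, adjusted p = 6.27e-05 by edgeR), in 13 of 13 batches. Rpl15, a core large-subunit protein, ran from 604 to 883 CPM in Clmp (median 698) and rose by 0.36 (SE 0.07, adjusted p = 0.000494 by edgeR), in 13 of 13 batches. Neither was called with the strongest-gate assignment (adjusted p = 0.0503 for Rpl36a and 0.285 for Rpl15). The other 35 rising members had log2 fold changes between 0.22 and 0.35, Rps15a, Rps12, Rpl3 and Rps18 at the upper end. Of the abundant members named above, Rpl14 passed the test (0.28, adjusted p = 0.00432). Rpl41 (0.23, adjusted p = 0.0568), Rps16 (0.23, adjusted p = 0.056) and Rplp0 (0.21, adjusted p = 0.0776) did not.

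Among paralogs in Clmp, Rpl22l1 (log2 fold change 0.19, adjusted p = 0.226), Rps27 (0.19, adjusted p = 0.143), Rps27l (-0.02, adjusted p = 0.868) and Rpl39 (0.38, adjusted p = 0.138) did not pass the test, whereas Rpl3, Rpl7 and both Rps4x rows did (0.32, 0.28, 0.26 and 0.25). Of the 2 rows of Rps27a, which is made as a fusion with ubiquitin, Rps27a-2 rose (0.22, adjusted p = 0.0363) and Rps27a-1 did not pass (0.04, adjusted p = 0.756), and neither did Rplp1 (0.21, adjusted p = 0.0774).

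**Figure D4:**
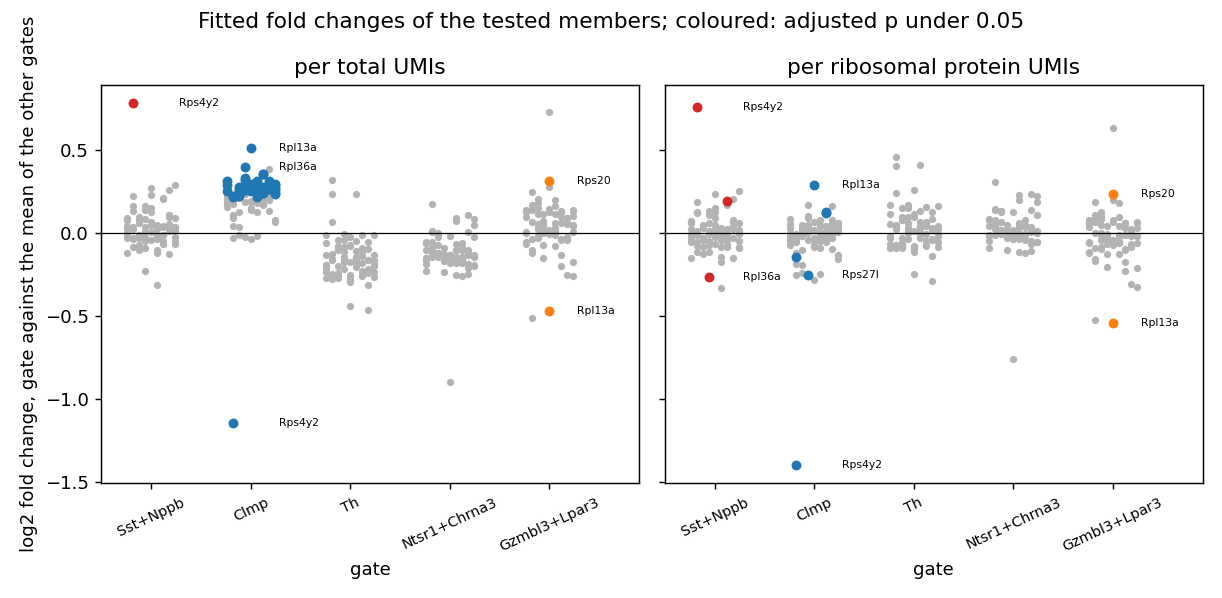
Log2 fold change of each tested member in each gate against the mean of the other gates, scaled to total UMIs (left) and to ribosomal protein UMIs (right), with members at an adjusted p under 0.05 coloured. On the left 38 coloured members lie above 0 in Clmp, and on the right the members close up around 0 and a few remain apart, Rps4y2 farthest at -1.40 in Clmp.

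To find members that departed from the rest, the same fit was run with member UMIs as the library size, so that a called member changed its part of the ribosomal mRNA pool. This scaling moved the median over all genes to -0.21 in Clmp, 0.17 in Ntsr1+Chrna3 and 0.18 in Th. On that scale 3 members were higher and 3 lower in Clmp (background 22.7%), 2 higher and 1 lower in Sst+Nppb (background 9.43%), 1 higher and 1 lower in Gzmbl3+Lpar3 (background 8.87%), and none in Ntsr1+Chrna3 or Th (background 3.49% and 2.44%, where 2 and 3 members had an unadjusted p under 0.05). Because this scaling centres the members by construction, their share of calls is not read against the background.

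Rps4y2 departed farthest. In Clmp sums it ran from 10.5 to 135 CPM (median 43.1), against 67.6 to 141 CPM (median 116) in Gzmbl3+Lpar3, 72.7 to 173 CPM (median 118) in Sst+Nppb and 32.2 to 133 CPM (median 76.0) in Ntsr1+Chrna3. The 5 Th sums were at 56.0, 65.4, 112, 130 and 166 CPM. Clmp was the lowest group, with wide overlap with Ntsr1+Chrna3. It fell in Clmp by 1.14 on the log2 scale per total UMIs (SE 0.21, adjusted p = 0.000105 by edgeR, lower in 10 of 13 batches) and by 1.40 per member UMIs (SE 0.20, adjusted p = 1.55e-06 by edgeR, lower in 12 of 13 batches). These calls held under all 11 and all 7 alternatives and without each batch in turn. In Sst+Nppb it rose by 0.78 (SE 0.24, adjusted p = 0.029 by edgeR, higher in 8 of 8 batches), and this call was lost without batch 20, 25 or 35, under 4 of 11 alternatives, and among them with the depth covariate (log2 fold change 0.55, adjusted p = 0.421).

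In single cells, too, Rps4y2 was low in Clmp. Among cells with at least 100000 UMIs, its median was 6.96 CPM in 156 Clmp cells, 4.28 CPM in 9 Trpm8 cells, 72.0 CPM in 60 Ntsr1+Chrna3 cells, 93.1 CPM in 28 Sst+Nppb cells, 104 CPM in 19 Th cells and 110 CPM in 47 Gzmbl3+Lpar3 cells. A UMI was present in 122 of the 156 Clmp cells (78.2%) and in 46 of 47 Gzmbl3+Lpar3 cells (97.9%), at median depths of 298786 and 407419 UMIs. The 2 Rps4x rows rose in Clmp by 0.26 and 0.25, near the median of all tested members there (0.22). Over the 47 sums rho between Rps4y2 and Rps4x-2 was -0.15, and 0.03 between Rps4y2 and the summed CPM of the other members. Rps4y2 and Rps4x are close copies, so reads between them may be split. On RefSeq's GRCr8 assembly Rps4y2 lies within the span of Tmtc1, whose own level was low (0.434 to 5.75 CPM by gate) and had a rho of -0.01 with Rps4y2. Tmtc1 was itself called higher in Sst+Nppb (log2 fold change 2.87, adjusted p = 0.00977 by edgeR), the gate in which Rps4y2 rose. In Clmp, where Rps4y2 fell, Tmtc1 was not called (1.00, adjusted p = 0.330 by edgeR). A link between the levels of Tmtc1 and Rps4y2 was not tested.

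**Figure D5:**
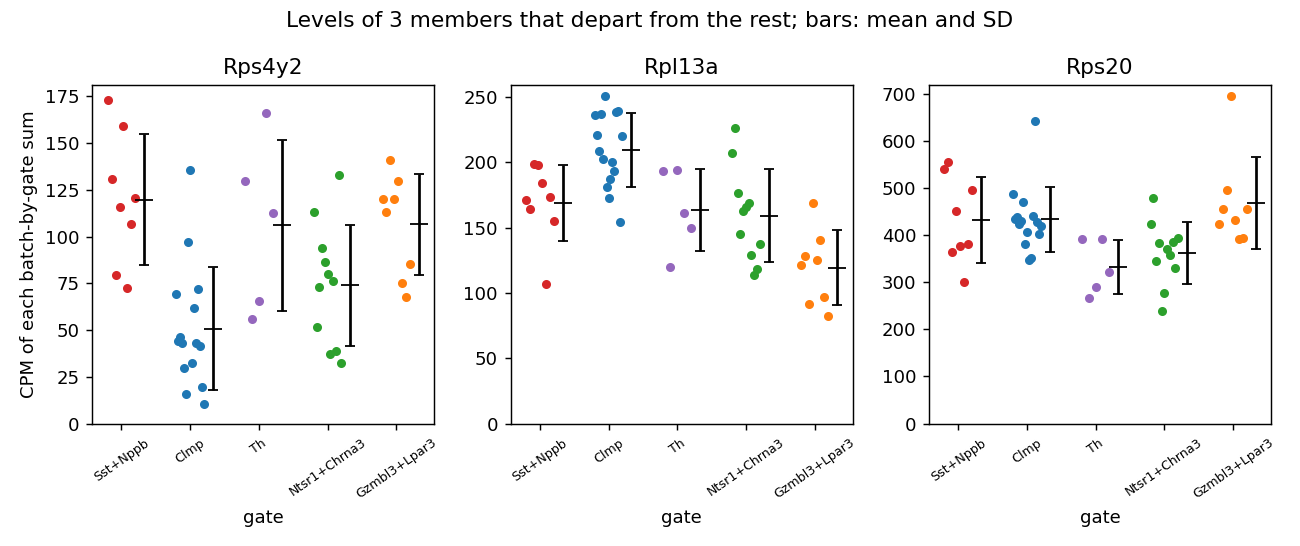
CPM of Rps4y2, Rpl13a and Rps20 in each batch-by-gate sum, with black bars for the mean and SD. Rps4y2 is lowest in Clmp (mean 50.8 CPM), Rpl13a highest in Clmp (210) and lowest in Gzmbl3+Lpar3 (119), and 1 Gzmbl3+Lpar3 sum of Rps20 stands apart at 695 CPM.

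Other departures were small. In Clmp, Rpl19 made up 18.5 to 21.2 of every 1000 member UMIs (median 19.7), against 19.2 to 25.4 over the sums of the other gates. It fell by 0.14 on the log2 scale per member UMIs (SE 0.04, adjusted p = 0.0115 by edgeR), in 13 of 13 batches, under all 7 alternatives and without each batch. Rpl15 and Rps15a were each 0.12 higher there (adjusted p = 0.0185 and 0.0245), Rpl13a 0.29 higher (0.0242) and Rps27l, a p53-induced paralog of Rps27, 0.25 lower (0.00889). Each of these 4 lost its call under 1 to 4 of the 7 alternatives. Rpl13a also lost it without batch 20, 25, 32, 33 or 35, and Rps15a without 28-3, 29 or 31. In Gzmbl3+Lpar3, Rpl13a was 0.54 lower per member UMIs (adjusted p = 0.0071) and Rps20, a small-subunit protein, 0.23 higher (adjusted p = 0.0211). Rpl13a lost this call under 3 of 7 alternatives (adjusted p up to 0.115) and Rps20 under 4 of 7 (log2 fold change down to 0.14, adjusted p up to 0.376). Rps20 was above the other gates in 7 of 7 batches on that scale and 4 of 7 per total UMIs, and its call was lost without batch 26 or 28-3 on both scales, and without 29 per total UMIs. In Sst+Nppb, Rplp0 was 0.19 higher per member UMIs (adjusted p = 0.0087, 8 of 8 batches, lost without batch 26) and Rpl36a 0.26 lower (adjusted p = 0.0463, lost in 9 of 16 refits that each left out a batch). Rplp0 lost its call under 2 of 7 alternatives (log2 fold change down to 0.12, adjusted p up to 0.274). Rpl36a lost it under 4 of 7, with a log2 fold change as small as -0.01 (adjusted p = 0.956).

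Rpl13a has Fcgrt, the neonatal Fc receptor, as a neighbour on RefSeq's GRCr8 assembly. Fcgrt differed far more between gates: 161 ± 35.1 CPM in Clmp, 137 ± 42.8 CPM in Sst+Nppb and 7.45 to 10.4 CPM on average in the other 3 (SD over sums). Rpl13a was not high in Sst+Nppb (169 ± 29.3 CPM), and rho over the 47 sums was 0.56 with Fcgrt.

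Cells that carry Trpm8, the cold and menthol channel, could be tested only with the strongest-gate assignment and sums of at least 2 cells, a scheme chosen after seeing the data. Their 11 sums had the highest mean ribosomal share of that scheme (3.74 ± 0.43%, SD), from 3.08% to 4.49%. The mean was 3.43 ± 0.77% for 11 Th sums and 3.38 ± 0.39% for 15 Clmp sums. The highest single sums were those of Th (5.46%) and Clmp (4.52%). Of 77 tested members 42 rose and 1 fell in Trpm8, against 11.2% of all genes (6.42% higher, 4.79% lower), with a member median of 0.31 and a median over all genes of -0.03. Rpl3 (748 ± 153 CPM, log2 fold change 0.47, adjusted p = 0.000215) and Rps4x-2 (472 ± 160 CPM, 0.45, adjusted p = 2.13e-05) rose most, and Rps4y2 fell (51.4 ± 48.7 CPM, -0.81, adjusted p = 0.0462). With the depth covariate 20 members rose and none fell (background 7.27%, 4.24% higher, member median 0.22). In the same scheme 33 members fell in Ntsr1+Chrna3 (background 4.42%, 2.2% lower), which became 0 with the covariate (background 1.71%, where 11 members had an unadjusted p under 0.05). The 2 Pvalb+Vsnl1 cells with 1 gate had shares of 4.39% at 165623 UMIs and 3.70% at 7678 UMIs.

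Other genes of translation were read from lists chosen by function, beside the 18.8% of all tested genes called in Clmp (10.4% higher, 8.37% lower). The lists were not tested as sets, and apart from the first their counts in Clmp are small or near that background. Of the ribosomal proteins outside the name pattern, 3 of 3 tested rose in Clmp, and none was called with the depth covariate. Rpsa (log2 fold change 0.28) and Rack1-2 (0.28) were among the 3. The summed share of the 5 rows of that list fell with depth by 1.07 on the log2 scale. Of 10 elongation factors, 2 rose in Clmp: Eef2, which moves the ribosome along the mRNA (0.31, adjusted p = 0.00258), and Eef1g (0.26, adjusted p = 0.00425). Eef1a1, which brings tRNAs to the ribosome, did not pass (0.13, adjusted p = 0.264). Of 8 other mRNAs with a TOP tract, 2 rose, Hnrnpa1 (0.60, adjusted p = 7.76e-05) and Npm1 (0.24, adjusted p = 0.0102), while Tpt1 (0.12, adjusted p = 0.372) and Pabpc1 (-0.09, adjusted p = 0.515) did not pass. Of 49 tested ribosome biogenesis genes 6 rose and 1 fell, a smaller share than over all genes. The largest rises were those of Nop56, a box C/D snoRNP protein (0.52, adjusted p = 3.94e-06), and Taf1d, an RNA polymerase I factor (0.44, adjusted p = 0.00283). Among 22 genes of mTOR control, Myc rose (0.99, adjusted p = 1.24e-05) and Rps6kb2 fell (-0.48, adjusted p = 0.0146).

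Of 36 initiation factors 3 rose in Clmp, Eif4a2 among them (0.38, adjusted p = 0.000119), again a smaller share than over all genes. In Gzmbl3+Lpar3, where 13% of all genes were called, 7 of the 36 rose and 1 fell. Eif6, which keeps free large subunits apart (0.46, adjusted p = 0.000603), and Eif4e2 (0.39, adjusted p = 0.0105) had the largest rises. Of 16 tested genes of ribosome rescue and quality control 4 rose in Gzmbl3+Lpar3, among them Pelo (0.65, adjusted p = 0.00044) and Zfp598 (0.70, adjusted p = 0.003), which act on stalled ribosomes. In Clmp none of the 16 rose and 2 fell, Mkrn1 (-0.30, adjusted p = 0.0198) and Hbs1l (-0.19, adjusted p = 0.026). These 2 gates' fold changes were not tested against each other. Of 71 tested mitochondrial ribosomal proteins 6 rose and 3 fell in Clmp (median 0.04), a smaller share than over all genes. As a group their share of UMIs rose with depth by 0.64 on the log2 scale, as did biogenesis genes (0.52), while elongation factors (-0.47) and other TOP mRNAs (-0.67) fell with depth like the members.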

How the data were processed

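Single rat neurons were profiled by 3′ UMI RNA-seq in 17 batches. The deposited values are whole-number UMI counts per gene and cell. The authors used UMI-tools, STAR, featureCounts, Subread and SAMtools with build Rnor_6.0, per the submitters' processing notes; settings and strand are not given in the sources used here. Batch 21 repeats batch 20 and was left out. Cells with at least 2000 genes were kept, gated and summed per batch and gate. Sums (47) were fitted with edgeR 4.0.16 (gate and batch terms, TMM factors, minimum count 10, adjusted p under 0.05), with total or member UMIs as library size; DESeq2 1.42.0 was an alternative. The fit was also run on simulated counts, with fold changes larger than those of most members put into 1 gate. Those counts held no batch differences and no change of composition with depth, so they do not bear on either. Doublets were not called, since cells were picked singly. Members and lists were chosen with earlier results of these data known.

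Named members were: per gate, direction and scaling up to 3 called members with at least 20 CPM and the same direction in 80% of batches; the 5 highest and 3 lowest levels; the 3 highest and lowest correlations; and named paralogs. Other lists gave up to 2 genes per direction in Clmp; other genes named, and those named against depth, were chosen after their values were seen. Intervals were not computed for sums, whose spread over batches is given. A few genes that this rule names are not reported here.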

Additional observations from a re-analysis of the deposited data

Results flagged for a closer look

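Of 8 groups of 4 to 10 batch-by-gate sums that were examined for a single distant value, 2 had one, and chance alone gives about 1 in 20. Both lie in the same sum, the 4 Gzmbl3+Lpar3 cells of batch 26. Its ribosomal share was 3.83%, far above the other 7 sums of that gate (2.90% to 3.10%). Its Rps20 level was 695 CPM, again far above the other 7. This sum had 184036 UMIs per cell, the lowest of that gate. Without batch 26, Rps20 was no longer called in Gzmbl3+Lpar3, whereas Rpl13a still was.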

How the results depend on the processing

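The relation between share and depth changed little with a stricter minimum of detected genes (rho -0.65), without 24 cells rich in glial RNA (-0.68) and within batches. The calls followed through the alternatives were those of Rps4y2, Rpl13a, Rpl36a, Rpl15 and Rps20 per total UMIs. Per member UMIs they were those of the same members and of Rps15a, Rps27l, Rpl19 and Rplp0. None of these log2 fold changes changed sign. Other named members were not followed in this way. In Clmp, 72 of 78 members were above 0 in the main fit, and 43 of 77 with the strongest gate and the depth covariate. Counts of called members, total scaling, moved as follows from 39 in Clmp, 2 in Gzmbl3+Lpar3, 1 in Sst+Nppb and 0 in the others. With a depth covariate, Clmp had 15, Sst+Nppb 12 and Gzmbl3+Lpar3 8. With doubled gate thresholds, Clmp had 11, Sst+Nppb 3 and Gzmbl3+Lpar3 1. With the strongest gate, Clmp had 4, Sst+Nppb 2, Th 1, Ntsr1+Chrna3 33 and Gzmbl3+Lpar3 10. Adding the depth covariate gave 3, 3, 1, 0 and 4. Of 10554 genes, the strongest gate without that covariate called 1282 higher and 1103 lower in Gzmbl3+Lpar3. In Sst+Nppb it called 1088 higher and 912 lower. Both are larger shares than those of the 77 tested members. The share over all genes was 12% in Clmp and 4.42% in Ntsr1+Chrna3. With at least 5 cells per sum, Ntsr1+Chrna3 had 6 and Gzmbl3+Lpar3 1, and Th had too few sums. Thinned cells gave 1 in Th, Ntsr1+Chrna3 and Gzmbl3+Lpar3 each. Without a filter on low counts Th had 1 and Ntsr1+Chrna3 2. DESeq2 gave 2 in Sst+Nppb and 1 in Th, and dropping the batch term gave 0 in Sst+Nppb. These counts show how calls moved with the setting and are not read as results about the members, since calls over all genes moved too. The cause of each shift was not tested.

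With ribosomal scaling, from 6 in Clmp, 3 in Sst+Nppb and 2 in Gzmbl3+Lpar3, at least 5 cells per sum gave 11 in Clmp and 0 in Gzmbl3+Lpar3. Thinned cells gave 0 in Sst+Nppb, 1 in Ntsr1+Chrna3 and 0 in Gzmbl3+Lpar3. The depth covariate gave 4 and doubled thresholds 0 in Gzmbl3+Lpar3. The strongest gate gave 7 in Sst+Nppb, 2 in Ntsr1+Chrna3 and 7 in Gzmbl3+Lpar3, and with depth 8 in Sst+Nppb, 3 in Th and 7 in Gzmbl3+Lpar3. Leaving out 1 batch gave, in total scaling, 28 to 48 (Clmp), 0 to 3 (Sst+Nppb), 0 to 1 (Th) and 1 to 2 (Gzmbl3+Lpar3). In ribosomal scaling it gave 5 to 7 (Clmp), 1 to 3 (Sst+Nppb), 0 (Th), 1 to 2 (Gzmbl3+Lpar3) and 0 to 1 (Ntsr1+Chrna3). The share of all genes called is not given for these refits, so these ranges are not read as results about the members. Mean shares were 3.78% (Sst+Nppb) and 3.99% (Clmp) as means over cells, and 3.58%, 3.94% and 3.41% (Gzmbl3+Lpar3) in thinned cells. No paired analysis was possible because the labels give 1 group, with no replicate numbers shared between groups. Gates, which are made from cells, were instead blocked by batch through the batch term.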
